A study of Mus musculus with 15 samples.

Results

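The Stag2-KO clone was compared with its wild-type parent in 6 of the 15 RNA-seq libraries of the series, 3 of Stag2-KO siGLO and 3 of WT siGLO. Membership was set by the sample titles alone, and no measured value was used to choose a library. All cells were v6.5 mouse embryonic stem cells (mESCs), a male line grown on gelatin, and all 6 cultures received siGLO, a control siRNA without a target gene, at 50 nM for 48 h before RNA was taken. Stag2-KO is a CRISPR line with a homozygous deletion that runs from exon 7 to exon 9 of Stag2, and WT carries no edit. The sequenced Stag2-KO libraries are 3 replicates of 1 clone, so a change caused by losing Stag2 and a change particular to that clone cannot be told apart, and the p-values measure only the spread between these cultures. The other 9 libraries are 3 each of a Stag1-KO clone with siGLO, WT with an siRNA against Stag1 (siStag1) and Stag2-KO with siStag1. They entered the fit to estimate the spread between replicates.

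Cohesin is a ring of SMC1, SMC3 and RAD21 that holds sister chromatids together and extrudes loops of chromatin, and each ring carries either STAG1 or STAG2. Cultures of mESCs move between a naive state, which resembles the early inner cell mass, and a formative state on the way to the primed epiblast, and some cells leave towards primitive endoderm, the layer that lines the blastocyst and lays down basement membrane. WNT, FGF, Nodal and LIF signals set the balance between these states, and primitive streak genes such as T are the earliest genes of gastrulation.

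The 6 libraries held 16030901 to 19005726 gene counts each. At this depth the floor of 3 counts corresponds to 0.158 to 0.187 CPM, which covers counting error only. Replicates of a group differed from each other by more than sampling noise (chi-square per degree of freedom 7.67 to 22.2 over the 6 pairs), so no library was a copy of another. Values below are normalized counts, which are counts scaled to a common library size by edgeR's TMM method. A gene is called higher or lower where edgeR's quasi-likelihood test gave a Benjamini-Hochberg adjusted p under 0.1 over all 14508 genes tested. The mESC label was checked against its defining genes Pou5f1 and Sox2. Pou5f1 lay between 17830 and 23960 and Sox2 between 7392 and 9473 in all 6 libraries. Of other marker genes of mESCs, Esrrb, Dppa5a and Zfp42 were called lower in Stag2-KO, and Nanog, Utf1 and Tdgf1 were not called.

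Stag2 was measured first as a check of the labels. Its normalized counts were 2329, 2334 and 2329 in WT siGLO replicates 1 to 3 and 663, 739 and 675 in Stag2-KO siGLO. The fall of 1.75 on the log2 scale (SE 0.12, edgeR adjusted p = 4.3e-07) was even across the replicates. The counts are sums over whole genes, so they show less Stag2 RNA and do not show which exons remain.

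Of the other cohesin genes, none was called higher. Stag1, the paralog that can take the place of Stag2 in the ring, was at 1875 to 2204 in Stag2-KO siGLO against 2012 to 2288 in WT siGLO and was not called (log2 fold change -0.10, SE 0.13, edgeR adjusted p = 0.63). The ring genes Smc1a (0.04), Smc3 (-0.09) and Rad21 (-0.12) and the loader gene Nipbl (-0.01) were not called either. Besides Stag2, 4 of the 19 tested cohesin genes were lower, where 28.3% of all tested genes were called (13.9% higher and 14.4% lower). Stag3, the meiotic STAG paralog, went from 1105, 1170 and 1622 in WT siGLO to 726, 450 and 652 (log2 fold change -1.09, SE 0.16, edgeR adjusted p = 0.00023). The others were the meiotic subunit gene Smc1b (-0.78), the acetyltransferase gene Esco2 (-0.41) and the loader gene Mau2 (-0.22). Mau2 is on chromosome 8, where 254 of 762 tested genes were lower.

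Over all genes, 2022 were called higher and 2088 lower, of 14508 tested. The shares given beside the cohesin genes are the background against which the gene lists are read. Without WT siGLO replicate 2 the count was 2524. Among called genes, 636 rose and 528 fell by more than 1 on the log2 scale, and 203 rose and 107 fell by more than 2. Among called genes with a mean of at least 50 over the 6 libraries and no overlap between groups, the highest fold changes were those of Wnt8a (a WNT ligand of the streak), Fgf8 (an FGF ligand of the streak), Ptn (the growth factor pleiotrophin), Pcdh18 (a protocadherin), T, En1 (a homeobox regulator), Zfhx4 (a zinc finger homeobox factor) and Fgf5 (the classic marker of formative and primed epiblast), at 3.25 to 4.78. All 8 passed the filter on low counts through Stag2-KO siGLO alone, with WT values of 3.87 to 16.3, so their folds and their order are descriptions. The lowest fold changes were those of Slco2a1 (a prostaglandin transporter), Slc13a5 (a citrate transporter), 9930013L23Rik, Tns4 (a tensin), Klb (the FGF co-receptor beta-Klotho), Sox17, Col4a2 and Cubn, at -2.69 to -4.05, of which Slco2a1 and Klb passed the filter through WT siGLO alone. A gene passes through a single group where it lies under the filter's cutoff in some library of the other group. For a gene that passes only through the group where it is high, the filter itself favours a difference. This holds for 159 of the genes called higher and 174 of those called lower. Among the genes named below they include Nkx1-2, Tbx2, Ror1, Col4a6, Oasl2, Psmb8, Actc1 and Rgl3 for the rises and Foxa2, Hnf4a, Enpep, Wnt11, Ihh, Ankrd1 and Klf17 for the falls.

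The called genes were mostly even in direction and less even in size. Of the 4110 called genes, 4037 had the same sign in all 3 Stag2-KO replicates relative to the WT siGLO mean. In 3609 the replicates of both groups did not overlap, a count to be read against 35.7% of all tested genes (17.1% higher and 18.5% lower). The range over the 3 Stag2-KO replicates, as a log2 ratio, had a median of 0.377 and a 90th percentile of 1.33, against 0.297 and 0.933 over the 3 WT replicates at the same genes. A range under 0.25 was found at 1311 called genes and a range over 2 at 167. Among called genes with a fold change over 1 on the log2 scale and a mean of at least 50, the most even included Msrb2 (a methionine sulfoxide reductase), at 181, 186 and 179 against 72.6 to 101 in WT, Amn (the membrane anchor of cubilin), at 75.1, 78.7 and 76.0 against 279 to 352, and Cobll1, at 59.3, 56.0 and 56.0 against 99.6 to 129. The 4 least even of them were Fgf8 (range 3.77), Wnt8a (3.40), Rgl3 (3.18) and T (2.88).

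**Figure D1:**
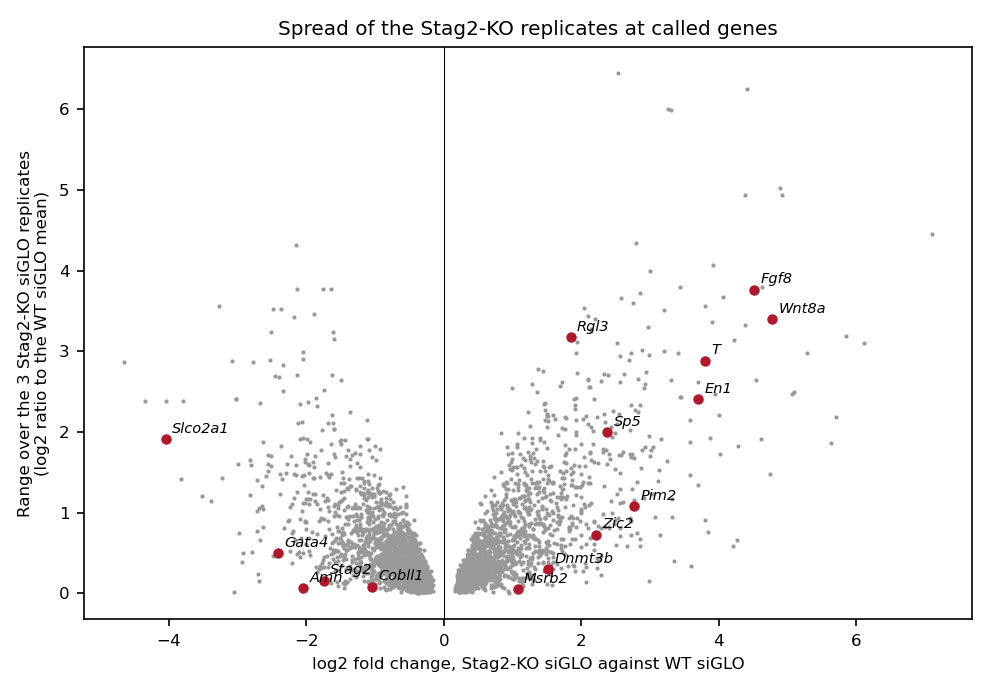
Each point is 1 of the 4110 called genes, with its log2 fold change in Stag2-KO siGLO against WT siGLO on the x axis and the range over the 3 Stag2-KO replicates, as log2 ratios to the WT siGLO mean, on the y axis. Stag2, Amn and Msrb2 sit near 0, while Fgf8 (3.77), Wnt8a (3.40) and T (2.88) sit high on the side of the rises.

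Stag2-KO siGLO replicate 1 stood apart from the other replicates of the clone. Its values deviated from the group mean with an SD of 0.418 on the log2 scale, against 0.303 and 0.323 in replicates 2 and 3 and 0.25 to 0.297 in WT siGLO. At 2096 of the 4110 called genes it was the replicate farthest from the middle of the 3. Across the called genes its log2 ratios had an r of 0.818 with replicate 2 and 0.794 with replicate 3, while replicates 2 and 3 had an r of 0.933 (all 3 share the WT mean, and genes are not independent replicates). Without it 3798 genes were called, and of the 4110 calls 3177 were kept and none changed sign. Replicate 1 of Stag2-KO siStag1 stood apart in the same measure, at 0.405 against 0.267 and 0.307.

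Of the 60 gene lists counted, primitive endoderm had the largest share of lower genes. Of 28 listed genes 25 were tested, and 21 were lower, 1 was higher and 3 were not called, with a median log2 fold change of -2.19 beside 0.0070 over all tested genes. The fall was present in every Stag2-KO replicate, with list medians of -1.72, -2.23 and -2.54, and was smallest in replicate 1. Of the 25, 21 passed the filter on low counts in both groups, and 19 of these were lower. In bulk RNA, fewer cells of a type and less RNA per cell cannot be told apart, and this holds for every cell type named below.

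Transcription factors of the lineage fell together. Gata6, which starts the endoderm program, was at 496, 426 and 545 in WT siGLO and at 174, 62.5 and 61.2 in Stag2-KO siGLO (log2 fold change -2.30, SE 0.35, edgeR adjusted p = 0.00028). Replicate 1 kept more of it than the others, and no replicate reached the WT range. Gata4, which acts with it, went from 894, 895 and 1000 to 212, 150 and 159 (-2.42, SE 0.18, edgeR adjusted p = 9.2e-07). Sox17, an endoderm factor, went from 261, 259 and 268 to 67.7, 25.9 and 25.3 (-2.72). Sox7 (-2.22), Foxa2 (-2.46) and Hnf4a (-2.60), which also encode endoderm factors, were lower as well.

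Surface and uptake genes of primitive endoderm were lower as well. Pdgfra, the receptor by which these cells are sorted, went from 539, 513 and 571 to 145, 95.9 and 82.4 (-2.33, SE 0.22, edgeR adjusted p = 4.6e-06). Dab2, an endocytic adaptor, went from 1965, 1701 and 1761 to 513, 385 and 376 (-2.09). Cubn, the uptake receptor cubilin, went from 5152, 4721 and 4660 to 1087, 641 and 522 (-2.69), and its partner Amn fell by 2.05 on the log2 scale. Srgn (-2.39), Cited1 (-1.37), Plat (-0.62) and Apoe (-0.46) were lower by differing amounts. The member that rose was Fst, the activin antagonist follistatin, at 77.6, 40.7 and 46.5 in WT and 64.5, 125 and 118 in Stag2-KO (0.90), where the groups overlapped. Lrp2 (0.08), Bmp2 (-0.83) and Thbd (-1.02) were not called. Bmp2 was lower with the replicate block (edgeR adjusted p = 0.088), and Thbd was lower without WT siGLO replicate 1 (edgeR adjusted p = 0.065). Ttr, Apoa1 and Afp, which mark mature visceral endoderm, were below the filter.

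Of 22 tested laminin, nidogen and basement membrane genes 10 were lower and 2 higher, with a median of -0.42, and the paired genes Col4a1 and Col4a2 had the lowest fold changes. Col4a1, Col4a2, Lama1, Lamb1, Lamc1 and Sparc are in the endoderm list as well, so their falls are counted in both lists. Col4a1 went from 13554, 13470 and 13725 to 3074, 1738 and 1740 (-2.64, SE 0.21, edgeR adjusted p = 1.1e-06). Col4a2, whose chain is built into the same trimer, went from 6849, 7118 and 7706 to 1636, 806 and 863 (-2.71, SE 0.24, edgeR adjusted p = 3.2e-06). Both genes ranked the replicates alike, with replicate 1 highest and replicates 2 and 3 close together. They are transcribed in opposite directions from start sites 21 bases apart, so their promoter windows share 78 bases. The windows are shown because they hold this shared stretch, each 5′ to 3′ on the strand of its gene, as 300 bases that end 50 bases after the start (RefSeq, GRCm38.p6), at chr8:11312777-11313076 on the minus strand for Col4a1 and chr8:11312555-11312854 on the plus strand for Col4a2. No base is capitalized, since no motif is marked.
Col4a1: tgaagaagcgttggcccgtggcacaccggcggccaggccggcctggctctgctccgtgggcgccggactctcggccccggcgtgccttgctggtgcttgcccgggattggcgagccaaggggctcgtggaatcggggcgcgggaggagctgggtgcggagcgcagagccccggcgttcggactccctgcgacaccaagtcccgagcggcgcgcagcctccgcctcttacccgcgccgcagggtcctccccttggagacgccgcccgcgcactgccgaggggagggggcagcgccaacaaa
Col4a2: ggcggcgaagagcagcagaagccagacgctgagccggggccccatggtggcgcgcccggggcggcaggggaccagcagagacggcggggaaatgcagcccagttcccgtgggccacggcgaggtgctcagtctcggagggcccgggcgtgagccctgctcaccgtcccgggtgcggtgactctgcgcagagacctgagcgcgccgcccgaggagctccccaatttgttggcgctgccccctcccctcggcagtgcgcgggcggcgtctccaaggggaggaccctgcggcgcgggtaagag

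Several laminin chains of the same matrix fell. Lama1 went from 15132, 14913 and 14395 to 4216, 2476 and 3023 (-2.19), Lamb1 fell by 1.42 and Lamc1 by 1.20 on the log2 scale. Sparc, a collagen-binding matrix protein, fell by 1.15. The members that rose were Col4a5, at 12.2, 28.5 and 32.9 in WT and 56.1, 36.6 and 60.2 in Stag2-KO (1.06), and Col4a6 (2.49), the collagen IV chains encoded as a pair on the X chromosome. Over all 34 tested collagens 8 were higher and 6 lower, and the count of higher collagens was 4 without WT siGLO replicate 2 or Stag2-KO siGLO replicate 3 and 5 without WT siGLO replicate 1 or 3 or Stag2-KO siGLO replicate 2. The called genes of the endoderm list on chromosome 8 are 3 (Col4a1, Col4a2 and Plat).

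**Figure D2:**
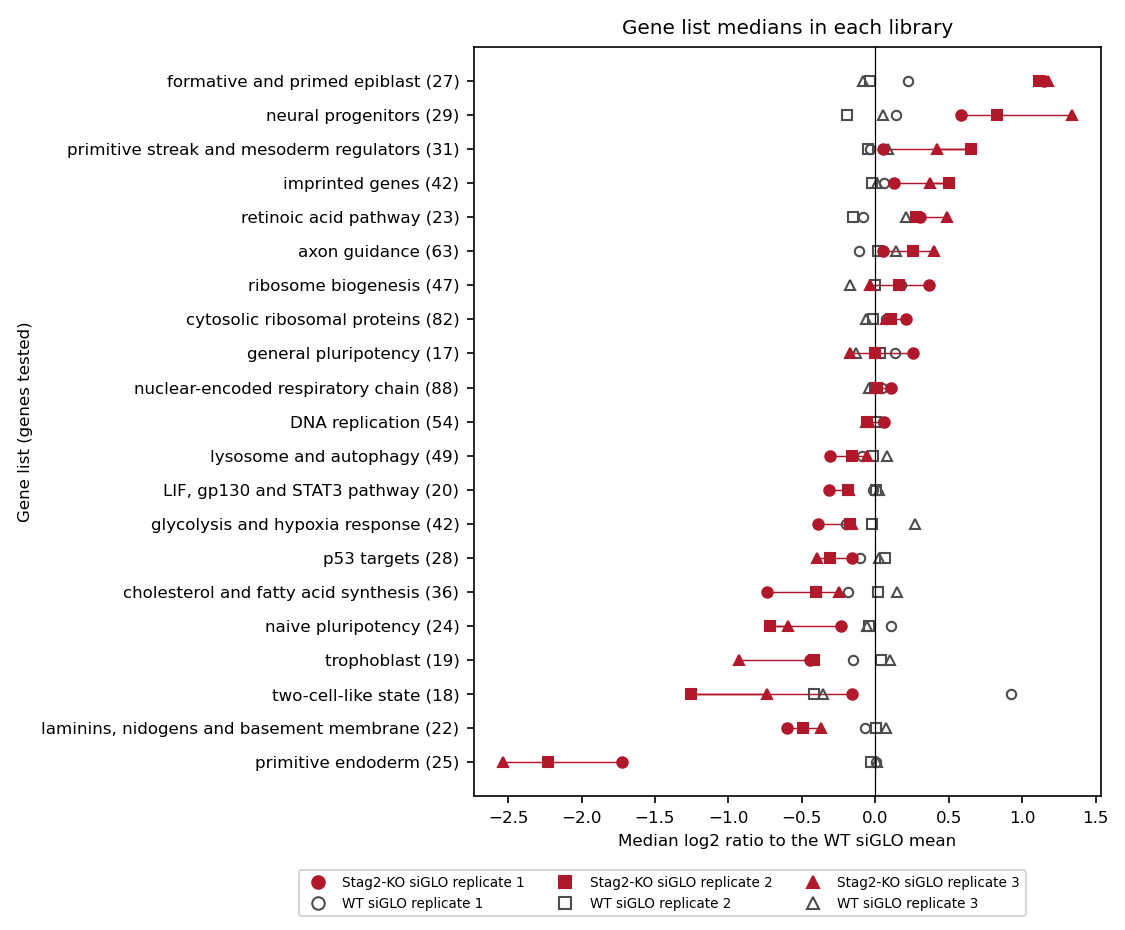
The x axis is the median log2 ratio to the WT siGLO mean over the tested genes of a list, for each of the 6 libraries, and the number of tested genes stands beside each list name. Primitive endoderm lies at -1.72 to -2.54 in the 3 Stag2-KO replicates and formative and primed epiblast at 1.12 to 1.17, whereas the 2-cell-like list spreads in both groups.

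Naive pluripotency genes were lower on balance, and the general pluripotency genes were not. Of 24 tested naive genes 14 were lower and 2 higher, with a median of -0.51. The Stag2-KO replicates had medians of -0.24, -0.72 and -0.60. The general list of 17 had 3 higher and 2 lower and a median of -0.0040 (-0.10 to 0.09 without 1 library). With the replicate number as a block its counts were 5 and 4, it had 5 lower without Stag2-KO siGLO replicate 1, and it had 1 higher without WT siGLO replicate 3.

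Several naive factors fell in every replicate of the clone. Esrrb, an orphan nuclear receptor of the naive network, went from 12416, 11028 and 11372 to 6271, 6042 and 7325 (-0.83, SE 0.14, edgeR adjusted p = 0.00070). Tfcp2l1, a LIF-responsive factor, went from 7612, 7546 and 8062 to 2806, 4697 and 4228 (-0.99, SE 0.14, edgeR adjusted p = 0.00013). Tbx3, which links LIF signalling to Nanog, went from 2179, 2010 and 2239 to 824, 870 and 955 (-1.28). These 3 genes had no overlap between groups, and Tbx3 was the most even of them. Prdm14, which restrains FGF signalling and DNA methylation, went from 470, 419 and 438 to 142, 163 and 212 (-1.36). Klf4 (-0.69), Klf5 (-0.68), Tcl1 (-0.96), Sox15 (-0.90), Jam2 (-0.83), Pecam1 (-0.70), Tet2 (-0.54), Mreg (-0.48) and Zfp42 (-0.41) were lower by less. Zfp42 was at -0.23 without WT siGLO replicate 1 (edgeR adjusted p = 0.22) and was not called with only the libraries compared or without Stag2-KO siGLO replicate 2 or 3. Enpep, a surface peptidase, was lower too, at 29.0, 28.5 and 46.5 in WT against 5.29, 2.16 and 2.11. No fold is given for it, since Stag2-KO replicates 2 and 3 lie under the floor of 3 counts.

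A few members of the same list went the other way or did not pass. Dppa3, an oocyte and germ cell gene, rose from 147, 162 and 141 to 226, 276 and 254 (0.75), and Klf2, on chromosome 8, rose by 0.43. Nr5a2 (-0.15) and Tdh (-0.04) were not called. Among general factors Lin28a (0.70), Gdf3 (0.43) and Sall4 (0.40) were higher and Fgf4 (-0.85) and Dppa5a (-0.73) were lower. Gdf3 was at 0.28 without WT siGLO replicate 3 (edgeR adjusted p = 0.12). Fgf4, the ligand that moves mESCs out of the naive state, went from 6368, 5456 and 5726 to 3727, 2930 and 3066. Nanog was 5600, 4927 and 5015 in WT and 2540, 4913 and 4885 in Stag2-KO and was not called (-0.33, SE 0.34, edgeR adjusted p = 0.52). Replicate 1 was far below WT, and replicates 2 and 3 lay just below the lowest WT value. Spic was below the filter.

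Formative and primed epiblast genes rose. Of 27 tested 17 were higher and 2 lower, with a median of 1.13, and the Stag2-KO replicates agreed closely, with medians of 1.15, 1.12 and 1.17. The filter was passed in both groups by 25, of which 15 were higher. Dnmt3b, a de novo DNA methyltransferase, went from 5791, 5025 and 4212 to 15480, 14992 and 12587 (1.52, SE 0.15, edgeR adjusted p = 7.2e-06). Otx2, which directs enhancer choice in the formative state, went from 243, 337 and 232 to 522, 519 and 510 (0.93). Both were even over the replicates and well clear of WT.

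Other members rose more and less evenly. Pim2, a serine kinase, went from 731, 514 and 614 to 2801, 5912 and 3937 (2.77). Zic2, a zinc finger factor of the epiblast, went from 642, 391 and 454 to 1639, 2713 and 2539 (2.21), and its neighbour Zic5 from 360, 241 and 279 to 631, 671 and 652 (1.15). Fgf5 was at 10.3, 11.2 and 7.74 in WT and 42.3, 134 and 105 in Stag2-KO (3.25). Replicate 1 had the smallest rise at Pim2, Zic2 and Fgf5. The order was different for Pou3f1, a POU factor that pairs with Otx2, at 381, 341 and 329 in WT and 1583, 967 and 835 in Stag2-KO (1.69), and for Lef1, a WNT effector, at 264, 133 and 208 against 1144, 790 and 835 (2.19), where replicate 1 was highest. Nkx1-2 (3.46), Sall2 (2.19), Cdh2 (1.87), Sox3 (1.71), Sfrp2 (1.65), Car14 (1.51), Fgf15 (1.13), Dnmt3a (0.72) and Sox4 (0.66) completed the rises, and at Dnmt3a the groups overlapped. Dnmt3a was at 0.34 without Stag2-KO siGLO replicate 1 (edgeR adjusted p = 0.34) and was not called with DESeq2 (adjusted p = 0.10) or without WT siGLO replicate 2 or 3, and Nkx1-2 was at 2.27 without Stag2-KO siGLO replicate 2. The members that fell were Dusp4 (-0.90), an ERK phosphatase gene on chromosome 8, and Tcf15 (-0.54). With the replicate block 5 members were lower, and without Stag2-KO siGLO replicate 1 it was 4.

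**Figure D3:**
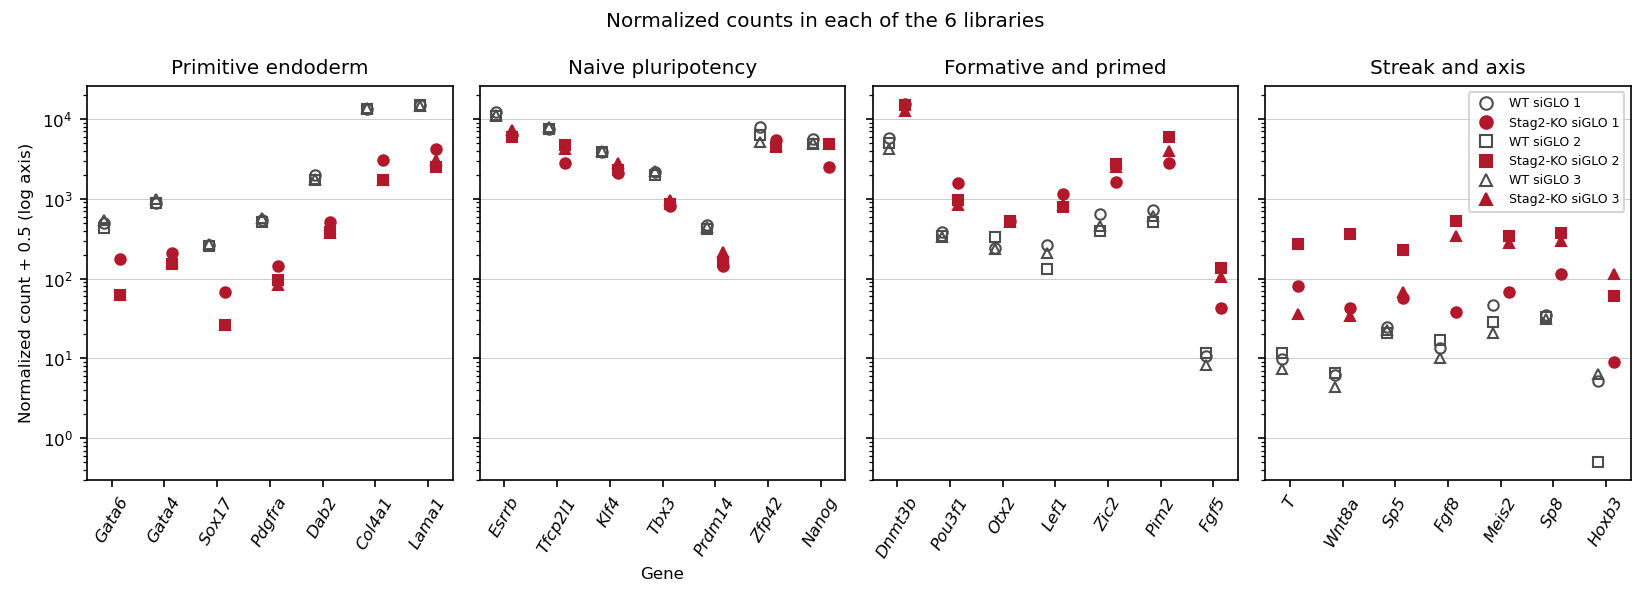
Normalized counts plus 0.5 are on a log axis for 28 genes in each of the 6 libraries, with open symbols for WT siGLO and filled symbols for Stag2-KO siGLO. The endoderm genes are lower and the formative genes higher in each Stag2-KO replicate, while T, Wnt8a and Fgf8 differ widely between the Stag2-KO replicates and Nanog is lowest in replicate 1.

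Primitive streak and mesoderm regulators moved both ways. Of 31 tested 8 were higher and 6 lower, and the Stag2-KO replicates had medians of 0.05, 0.65 and 0.42. Only 18 passed the filter in both groups, with 5 higher and 5 lower, and 3 of the 8 that rose passed through Stag2-KO siGLO alone. T, the founding T-box factor of the streak, was at 9.35, 11.2 and 6.78 in WT and at 80.4, 268 and 35.9 in Stag2-KO (log2 fold change 3.80). T is 1 of those 3, and its fold is a description. All 3 Stag2-KO values were above WT, and the highest and lowest of them were 2.88 apart on the log2 scale. Sp5 went from 24.3, 20.3 and 22.3 to 56.1, 226 and 67.6 (2.38, SE 0.53, edgeR adjusted p = 0.0051), and Sp8, its close relative, from 34.6, 32.5 and 31.0 to 115, 377 and 292 (2.99). Meis2, a homeobox cofactor, went from 45.8, 28.5 and 20.3 to 67.7, 345 and 276 (2.85). Replicate 2 was highest at T, Sp5, Sp8 and Meis2, and without it the fold change of Sp5 was 1.46 (edgeR adjusted p = 0.047).

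Other streak factors were lower or not called. Eomes, a T-box factor of streak and trophoblast, went from 186, 258 and 295 to 114, 193 and 96.1 (-0.87), and Snai1, which drives the epithelial to mesenchymal transition, from 52.4, 77.3 and 95.8 to 44.4, 46.3 and 26.4 (-0.94). Foxa2, Pdgfra, Tbx20 (-1.32) and Gata2 (-0.86) were the other falls, and Tbx2 (1.64) and Foxc1 (1.09) were among the other rises beside Nkx1-2. Gata2 was at -0.49 without WT siGLO replicate 3 (edgeR adjusted p = 0.36) and was not called with only the libraries compared or without WT siGLO replicate 2 or Stag2-KO siGLO replicate 2 or 3. Mixl1 (0.80), Tbx6 (-0.70), Cdx1 (0.95) and Cdx2 (0.57) were not called. With the replicate block Mixl1 was higher and Tbx6 lower (edgeR adjusted p = 0.086 and 0.098). Cdx1, a caudal-type homeobox gene, was at 58.0, 59.0 and 63.9 in WT and at 75.1, 220 and 54.9 in Stag2-KO, with replicates 1 and 2 above the WT range and replicate 3 below it. Mesp1, Msgn1, Evx1, Lhx1, Hand2, Meox2, Tcf21, Twist2 and Aplnr were below the filter.

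WNT ligands moved both ways. Wnt8a was at 5.61, 6.10 and 3.87 in WT and 42.3, 361 and 33.8 in Stag2-KO (4.78). Wnt3, which starts streak formation, was at 13.1, 22.4 and 17.4 in WT and 38.1, 180 and 47.5 in Stag2-KO (2.32). Without Stag2-KO siGLO replicate 2 the log2 fold change was 2.85 for Wnt8a and 1.28 for Wnt3. Wnt5b rose (1.35), and Wnt11 (-2.18), Wnt3a (-1.62) and Wnt7b (-1.22) fell, so that of 12 tested ligands 3 were higher and 3 lower (5 higher with the replicate block, and 1 lower without Stag2-KO siGLO replicate 2 or WT siGLO replicate 2). Wnt3a was at -1.07 without Stag2-KO siGLO replicate 2 (edgeR adjusted p = 0.23) and -2.54 without replicate 3, and was not called without any other library of the comparison. Of 42 tested receptors, antagonists and feedback targets 15 were higher and 5 lower, with a median of 0.19. Axin2, the feedback target that reads out the pathway in most tissues, went from 391, 339 and 358 to 445, 647 and 423 (0.48, SE 0.17, edgeR adjusted p = 0.054), highest in replicate 2, and without that replicate the fold change was 0.26 (edgeR adjusted p = 0.29). Ror1, a WNT5A receptor, rose by 2.56, while its relative Ror2 (-0.80) and the secreted antagonists Sfrp1 (-1.23), Sfrp4 (-1.09) and Dkk1 (-1.10) fell. Dkk1 was at -1.81 without Stag2-KO siGLO replicate 2 and was not called without any other library of the comparison. Without WT siGLO replicate 2 the count of lower members was 3.

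The promoter of Sp5, a direct target of WNT in many tissues, is shown because Sp5 was highest in replicate 2 together with Wnt8a, Wnt3 and Axin2. The window lies at chr2:70474673-70474972 on the plus strand (RefSeq, GRCm38.p6), and capitals mark the TCF/LEF letters CTTTGTT on the minus strand (read AACAAAG) and CTTTGAT on the plus strand, 222 and 104 bases before the start.
Sp5: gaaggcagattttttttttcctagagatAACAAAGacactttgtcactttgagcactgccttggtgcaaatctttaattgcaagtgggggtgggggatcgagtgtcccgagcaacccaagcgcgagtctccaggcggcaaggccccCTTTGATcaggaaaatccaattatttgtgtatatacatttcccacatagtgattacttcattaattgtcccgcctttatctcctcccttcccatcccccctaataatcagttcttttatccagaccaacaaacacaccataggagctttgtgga
CTTTGAT or CTTTGTT on either strand was in 3066 of 32851 promoters (9.33%), in 2 of the 22 streak regulators with an entry and in 4 of the 28 WNT receptors, antagonists and targets with an entry. A match describes the letters and is not a measured site.

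FGF ligands moved both ways. The ligand genes Fgf8, Fgf5, Fgf18 (1.38), Fgf15 and Fgf13 (0.90) were higher. Fgf8 was at 13.1, 16.3 and 9.68 in WT and 38.1, 525 and 339 in Stag2-KO (4.52), with the lowest value of the clone in replicate 1. Fgf4, Fgf3 (-1.49) and Fgf10 (-1.85) were lower, as were the receptors Fgfr4 (-1.73) and Fgfr3 (-1.45) and the co-receptor Klb, which went from 122, 130 and 101 to 29.6, 10.8 and 9.50 (-2.81). Fgfr2 was not called (0.38). Of 22 tested ERK feedback genes and targets 7 were higher and 2 lower (5 lower with the replicate block). Spred3 (1.71), an inhibitor of ERK signalling, went from 103, 75.2 and 55.2 to 233, 290 and 242, and Il17rd (1.10), another FGF antagonist, from 1265, 1355 and 1309 to 1778, 3532 and 3108.

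Genes of the TGF-beta branches went both ways. In the Nodal and activin list 6 of 23 tested genes were higher and 5 lower (3 lower without WT siGLO replicate 2). Lefty1, a feedback antagonist of Nodal, went from 3033, 1902 and 2251 to 5294, 6831 and 7645 (1.46, SE 0.20, edgeR adjusted p = 0.00014), while Nodal itself was at 1048, 1005 and 859 in WT and 1143, 1297 and 1034 in Stag2-KO and was not called (0.25). Inhbb, which encodes the activin B chain, went from 1616, 1558 and 1309 to 604, 320 and 374 (-1.79). In the BMP list 4 of 28 were higher and 4 lower, 14.3% each, near the 13.9% and 14.4% of all tested genes. Each count was 2 without Stag2-KO siGLO replicate 2, as was the count of higher without WT siGLO replicate 3 and of lower without WT siGLO replicate 2. The ligand genes Bmp6 (-1.76), Bmp7 (-1.19) and Bmp4 (-0.92) fell, and the target gene Id3 rose (1.59), from 237, 107 and 37.7 to 402, 490 and 260. WT alone spread that widely at Id3, and without WT siGLO replicate 1 its fold change was 2.41.

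LIF genes were lower in part, and Notch, retinoic acid and hedgehog genes were higher in part, with medians of 0.36, 0.36 and 0.34. The Notch median was 0.21 without Stag2-KO siGLO replicate 3, the retinoic acid median 0.63 without WT siGLO replicate 3 and the hedgehog median 0.22 without Stag2-KO siGLO replicate 1. Of 20 tested LIF, gp130 and STAT3 genes none was higher and 6 were lower (median -0.22, and -0.14 without WT siGLO replicate 2), with Tfcp2l1 and Klf4 among them, and with the replicate block 2 were higher. Lifr, the receptor chain for LIF, went from 2471, 2369 and 2245 to 1747, 1329 and 1497 (-0.63). Of 27 Notch genes 10 were higher and 2 lower. Rbpj, the DNA-binding effector of the pathway, was lower (-0.75), from 8401, 8131 and 6733 to 5210, 4276 and 4323, and Dtx4 (1.36) and Maml2 (1.21) were higher. Of 23 retinoic acid genes 7 were higher and none lower, and 11 were higher with the replicate block and 12 without Stag2-KO siGLO replicate 1. Crabp2, which carries retinoic acid into the nucleus, went from 94.4, 66.1 and 93.9 to 172, 311 and 387 (1.77), while the target Cyp26a1 was not called (-0.20). Of 15 hedgehog genes 6 were higher and 1, Ihh (-1.69), was lower, and without WT siGLO replicate 2 it was 3 higher.

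Neural progenitor genes rose in part. Of 29 tested 12 were higher and 1, Olig2 (-0.66), was lower (2 lower with the replicate block), with a median of 0.76 and Stag2-KO replicate medians of 0.58, 0.83 and 1.34. Of the 12 that rose 7 passed the filter in both groups, and with at least 10 counts required in every library compared the list had 7 higher. Pax6, a master regulator of neural progenitors, went from 74.8, 37.6 and 40.7 to 240, 313 and 455 (2.71, SE 0.32, edgeR adjusted p = 3.7e-05). Ptn went from 12.2, 10.2 and 7.74 to 42.3, 189 and 238 (3.94), and En1, a midbrain homeobox gene, from 11.2, 6.10 and 4.84 to 31.7, 170 and 91.9 (3.70). Nes, the progenitor filament nestin, went from 747, 698 and 675 to 1057, 2026 and 1639 (1.15). Replicate 1 had the smallest value of the clone at Pax6, Ptn, En1 and Nes and was above WT at each. Of 27 tested genes of neurons 7 were higher and 2 lower, with Mapt (-1.19) and Cntn2 (-0.84) lower. Cntn2 was at -0.48 without WT siGLO replicate 3 (edgeR adjusted p = 0.28).

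Hox genes were near the floor in WT. Of 39 listed 16 passed the filter in some group and 3 in both, so counts over the 16 give no support to a direction. The 7 called higher all passed through Stag2-KO siGLO or a group not compared here. Hoxb1, the earliest Hox gene of the hindbrain and streak, was at 0.935, 0 and 0 in WT and 10.6, 39.9 and 15.8 in Stag2-KO, and Hoxb2 was at 1.87, 0 and 1.94 in WT and 11.6, 67.9 and 65.5 in Stag2-KO. No fold is given for them, since WT held at most 2 counts. Hoxb3 was at 4.67, 0 and 5.81 in WT and 8.46, 60.3 and 114 in Stag2-KO, with 1 WT library at 0. The posterior gene Hoxc13 was lower (-0.69). Among 69 other homeobox regulators 17 were higher and 8 lower, and among the 41 that passed the filter in both groups it was 8 and 7. In the clustered protocadherins 2 of 23, Pcdhb2 (2.91) and Pcdhb22 (2.31), were higher, neither passed the filter in both groups, and the count was 0 without Stag2-KO siGLO replicate 2 and 1 without Stag2-KO siGLO replicate 3 or WT siGLO replicate 1 or 2.

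Sterol and fatty acid synthesis genes were lower in most members. Of 36 tested 24 were lower and 1 higher, with a median of -0.43. The medians were -0.74, -0.41 and -0.25 in Stag2-KO replicates 1, 2 and 3 and -0.18, 0.02 and 0.15 in WT. Against the WT library of the same number they were -0.57, -0.43 and -0.37. Sc4mol, a sterol demethylase gene, went from 2162, 2631 and 2815 to 791, 1192 and 1247 (-1.24, SE 0.19, edgeR adjusted p = 0.00031). Scd1, which desaturates fatty acids, went from 3101, 4200 and 5610 to 1220, 1906 and 2889 (-1.10). In each pair of equal number the Stag2-KO value was below WT.

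Other members of the pathway were lower too. Insig1, which holds the SREBP factors back when sterol is plentiful, went from 3130, 3842 and 4623 to 1632, 1966 and 2747 (-0.87), and Hmgcs1, an early enzyme of the pathway, from 6312, 7584 and 7993 to 3984, 5045 and 5804 (-0.56). The SREBP genes Srebf1 (-0.19) and Srebf2 (-0.21) and Fasn (0.08) were not called, and with the replicate block Srebf1 and Srebf2 were lower (edgeR adjusted p = 0.075 and 0.083). Sc4mol and Mvd (-0.99), from 1425, 1787 and 1874 to 675, 865 and 1025, are on chromosome 8.

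The promoters of Hmgcs1 and Insig1 are shown because their genes belong to the response that SREBP drives. Both lie on the plus strand (RefSeq, GRCm38.p6), at chr13:119690101-119690400 and chr5:28071162-28071461. Capitals mark the sterol response element letters TCACNCCAC, 137 bases before the start of Hmgcs1, and the CCAAT box, read ATTGG on this strand.
Hmgcs1: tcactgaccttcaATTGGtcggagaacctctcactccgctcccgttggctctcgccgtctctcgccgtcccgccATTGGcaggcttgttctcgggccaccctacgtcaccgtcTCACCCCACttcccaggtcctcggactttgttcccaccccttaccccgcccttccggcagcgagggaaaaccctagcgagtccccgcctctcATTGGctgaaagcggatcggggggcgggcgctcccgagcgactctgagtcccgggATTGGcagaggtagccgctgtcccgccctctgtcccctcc
Insig1: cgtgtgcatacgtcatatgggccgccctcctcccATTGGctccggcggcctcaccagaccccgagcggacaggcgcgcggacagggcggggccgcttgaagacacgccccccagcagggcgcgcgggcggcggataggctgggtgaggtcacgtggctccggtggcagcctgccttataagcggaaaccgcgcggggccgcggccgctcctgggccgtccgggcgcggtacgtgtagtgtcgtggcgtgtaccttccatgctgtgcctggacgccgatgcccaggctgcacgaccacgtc
The letters TCACNCCAC on either strand were in 408 of 32851 promoters (1.24%), and Hmgcs1 was the 1 of 25 sterol and fatty acid genes with an entry that held them. CCAAT was in 12289 of all promoters (37.4%), in 42.9% of tested genes with an entry and in 22 of the 25 (88%).

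The p53 targets, the glycolysis and hypoxia genes and the lysosome and autophagy genes each had more lower members than higher ones. Of 28 tested p53 targets 13 were lower and 1, Trp53 itself (0.28), was higher (2 without Stag2-KO siGLO replicate 2). Trp53 was not called with only the libraries compared or without any library but Stag2-KO siGLO replicate 2, and its fold change was 0.16 without Stag2-KO siGLO replicate 1 (edgeR adjusted p = 0.36). Cdkn1a, the cell cycle inhibitor p21, went from 731, 973 and 1150 to 622, 571 and 420 (-0.82), and Polk, a translesion polymerase, from 414, 656 and 667 to 304, 335 and 330 (-0.84). Without WT siGLO replicate 2 the count of lower p53 targets was 5, and without WT siGLO replicate 3 or Stag2-KO siGLO replicate 2 it was 8. Of 42 glycolysis and hypoxia genes none was higher and 12 were lower (median -0.22). The median was -0.37 without Stag2-KO siGLO replicate 3, -0.35 without WT siGLO replicate 1 and -0.12 without WT siGLO replicate 3. P4ha2, a collagen prolyl hydroxylase, went from 777, 755 and 1054 to 285, 356 and 348 (-1.39), and Hkdc1, a hexokinase relative, from 168, 223 and 197 to 48.7, 25.9 and 19 (-2.65). Of 49 lysosome and autophagy genes 14 were lower and 4 higher, with the replicate block 22 were lower, and the count of higher was 1 without WT siGLO replicate 2 and 2 without Stag2-KO siGLO replicate 2. The protease genes Ctsh (-1.69) and Ctsc (-0.74) were among them.

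Some ribosome genes were called higher by small amounts, and the number called depended on single libraries. The shares called higher were 19.5% of cytosolic ribosomal protein genes and 17.0% of ribosome biogenesis genes, against 13.9% of all tested genes. They were 10.2% of respiratory chain genes and 7.41% of DNA replication genes, which is below that background. Of 82 cytosolic ribosomal protein genes 16 were higher and 2 lower (median 0.13, and 0.09 to 0.16 without 1 library), but without Stag2-KO siGLO replicate 1 or without WT siGLO replicate 2 the count of higher was 5, without WT siGLO replicate 3 it was 4 and without Stag2-KO siGLO replicate 2 it was 9. Rps29 went from 3416, 2809 and 2675 to 6971, 5141 and 4801 (0.93). Of 47 ribosome biogenesis genes 8 were higher and none lower, with 22 higher with the replicate block and 2 without Stag2-KO siGLO replicate 1 or WT siGLO replicate 2 and 3 without WT siGLO replicate 3. Of 88 nuclear-encoded respiratory chain genes 9 were higher and 2 lower, and with the replicate block 19 were higher. Without WT siGLO replicate 2 it was 3, and without WT siGLO replicate 3 or Stag2-KO siGLO replicate 1 it was 5. The count of lower was 5 without Stag2-KO siGLO replicate 1 and 4 without WT siGLO replicate 1. DNA replication genes had 4 higher and 2 lower of 54, and 7 higher and 10 lower with the replicate block. Their count of higher was 0 without WT siGLO replicate 2, 1 without replicate 3 and 2 without Stag2-KO siGLO replicate 1 or 2, and their count of lower 5 without WT siGLO replicate 3.

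Imprinted genes were higher more often than lower. Of 42 tested 19 were higher and 7 lower, with a median of 0.36, and without WT siGLO replicate 3 it was 12 higher. The median was 0.22 without Stag2-KO siGLO replicate 2. Meg3 and Rian, maternally expressed RNAs of the Dlk1 cluster on chromosome 12, went from 2347, 2410 and 2874 to 6811, 4460 and 6757 (1.24) and from 3176, 2854 and 2998 to 7874, 6394 and 8048 (1.31), and the paternally expressed Dlk1 from 126, 74.2 and 96.8 to 217, 251 and 239 (1.25). Genes expressed from either parental allele of the cluster rose. H19 fell from 176, 195 and 166 to 38.1, 51.7 and 24.3 (-2.23, SE 0.28, edgeR adjusted p = 6.0e-05), while Igf2, its oppositely imprinted neighbour, was at 565, 817 and 709 in WT and 666, 677 and 526 in Stag2-KO and was not called (-0.16).

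Some interferon and antigen presentation genes rose. Of 37 tested 14 were higher and 5 lower, among the 27 that passed the filter in both groups it was 9 and 5, and it was 9 higher without WT siGLO replicate 2 and 3 lower without Stag2-KO siGLO replicate 2. Oasl2, an interferon-induced gene, went from 19.6, 9.15 and 25.2 to 67.7, 148 and 106 (2.56), and Psmb8, an immunoproteasome subunit, from 25.2, 15.3 and 9.68 to 12.7, 139 and 82.4 (2.21), where replicate 1 lay within the WT range and the edgeR adjusted p without replicate 2 was 0.13. Tmem173, which encodes the DNA sensor STING, fell from 64.5, 72.2 and 53.2 to 24.3, 17.2 and 19 (-1.64). Of 33 genes of the actin cytoskeleton and of SRF and YAP targets 13 were higher and 6 lower. Actc1 (3.14), Tgfb2 (1.65) and Cnn1 (1.58) rose and Ankrd1, a YAP target, fell (-2.40, and -3.70 without Stag2-KO siGLO replicate 1). Acta2, smooth muscle actin, was at 125, 145 and 223 in WT and 1338, 288 and 178 in Stag2-KO and was not called (1.87, SE 0.78, edgeR adjusted p = 0.10), and replicates 1 and 2 lay above WT. It was called with no filter (edgeR adjusted p = 0.068), with only the libraries compared (0.085) and without Stag2-KO siGLO replicate 2 (0.092) or 3 (0.054).

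Several lists of other cell types had more lower genes than the background share. Trophoblast genes had 9 of 19 lower and none higher (median -0.68, and -0.44 without Stag2-KO siGLO replicate 3), led by H19 and Esx1 (-1.45), and the germline list had 13 of 36 lower and 2 higher, led by Rhox5, from 634, 744 and 670 to 328, 114 and 106 (-1.90). Blood and endothelium had 6 of 18 lower and 1, Fli1 (3.00), higher. Fli1 passed the filter neither in both groups nor through Stag2-KO siGLO alone. It was not called with DESeq2 (adjusted p = 0.16) or without any library of the comparison but Stag2-KO siGLO replicate 1. Fibroblast and feeder genes, the cells on which mESCs are often grown, had 3 of 15 higher and 1 lower (5 and 2 with the replicate block). The count of higher was 0 without WT siGLO replicate 2 and 1 without WT siGLO replicate 3 or Stag2-KO siGLO replicate 2 or 3. Col3a1, a defining fibroblast collagen, was at 4.67, 10.2 and 14.5 in WT and 96.3, 21.6 and 8.45 in Stag2-KO (2.10), highest in replicate 1, with replicate 2 above WT and replicate 3 within its range, and without replicate 1 the fold change was 0.61 (edgeR adjusted p = 0.66). The 2-cell-like list had 7 of 18 lower and 1 higher, and among the 10 that passed the filter in both groups it was 4 and 1. The count of lower rested on single libraries, at 0 without WT siGLO replicate 1 and 1 without Stag2-KO siGLO replicate 2 or 3. Zscan4c was at 227, 68.1 and 87.1 in WT and 83.6, 33.4 and 53.8 in Stag2-KO (-1.16), and without WT siGLO replicate 1 its fold change was -0.45 (edgeR adjusted p = 0.48). The part of these markers in the other results was not tested.

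Families grouped by gene symbol added few further patterns. Among 161 families with at least 10 tested members, the largest shares of rises were in Parp (7 of 12), Srsf (6 of 11) and Tcf (6 of 11) genes. Parp genes encode ADP-ribosyltransferases, and Parp8 (1.02), Parp10 (0.66) and Parp9 (0.66) rose most while Parp1 (-0.07) and Parp2 (0.10), the DNA damage members, were not called. Without Stag2-KO siGLO replicate 2 Parp10 was at 0.43 (edgeR adjusted p = 0.25). Srsf genes encode splicing factors, and the largest rise was that of Srsf6 (0.54). The largest shares of falls were in Klf (8 of 16), Myo (10 of 20) and Osbpl (5 of 10) genes. Among the Klf zinc finger factors Klf17 (-1.10) and Klf15 (-1.07) fell most and Klf7 (0.80), Klf2 and Klf13 (0.35) rose. Semaphorins, a family of axon guidance cues, had 8 of 19 higher and 3 lower, and the whole axon guidance list had 23 of 63 higher and 7 lower (14 higher without WT siGLO replicate 2, and 4 lower without WT siGLO replicate 2 or 3 or Stag2-KO siGLO replicate 2 or 3). Families were not tested as sets.

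The remaining lists had differing counts. Polycomb subunits had 10 higher and 9 lower of 33 (5 higher without WT siGLO replicate 2), mitosis and kinetochore genes 3 and 8 of 46, DNA damage genes 2 and 9 of 60, integrated stress response genes 3 and 6 of 39, and unfolded protein response genes 0 and 4 of 21. The count of lower mitosis genes was 5 without WT siGLO replicate 2. The count of lower unfolded protein response genes was 1 or 2 without any library of the comparison but WT siGLO replicate 3. DNA damage genes had 4 higher without WT siGLO replicate 1 or Stag2-KO siGLO replicate 2 and 1 without WT siGLO replicate 2 or 3 or Stag2-KO siGLO replicate 1. Integrated stress response genes had 5 higher and 2 lower without Stag2-KO siGLO replicate 3 and 6 higher without WT siGLO replicate 1. With the replicate block DNA damage genes had 7 higher and 16 lower, integrated stress response genes 6 higher and 10 lower, and mitosis genes 8 higher. Zfp-numbered zinc finger genes had 48 higher and 14 lower of 339 (73 and 27 with the replicate block, 25 and 8 without WT siGLO replicate 2, and 30 and 8 without WT siGLO replicate 3 or Stag2-KO siGLO replicate 2). Solute carriers had 33 higher and 56 lower of 272, and 20 higher without WT siGLO replicate 2. Heart and muscle genes had 8 higher and 3 lower of 21, epithelial to mesenchymal transition genes 8 and 4 of 27, forkhead factors 10 and 6 of 33, Sox factors 5 and 3 of 15, T-box factors 2 and 4 of 11, and DNA methylation genes 4 and 2 of 15. Keratins had 1 higher and 4 lower of 11, claudins 0 and 2 of 10, serine, glycine and threonine genes 4 and 4 of 20, clustered histones 1 and 1 of 34, amino acid transporters 8 and 5 of 28, and ion channels 16 and 13 of 84. Without WT siGLO replicate 2 forkhead factors had 6 and 3, ion channels 7 higher, and transition genes 2 lower. With the replicate block keratins had 8 lower, claudins 4 lower, DNA methylation genes 4 lower and clustered histones 2 lower. Claudins had 1 lower without any WT siGLO replicate or Stag2-KO siGLO replicate 2. DNA methylation genes had 2 higher without WT siGLO replicate 2, 2 higher and 4 lower without Stag2-KO siGLO replicate 1, and 1 lower without Stag2-KO siGLO replicate 2. Serine, glycine and threonine genes had 1 higher without WT siGLO replicate 2 or 3 or Stag2-KO siGLO replicate 1 and 2 higher without Stag2-KO siGLO replicate 2, and 1 lower without Stag2-KO siGLO replicate 3 and 2 lower without WT siGLO replicate 2. Clustered histones had 2 higher without replicate 1 of either group and 2 lower without Stag2-KO siGLO replicate 1 or 3. Ion channels had 7 or 8 higher without Stag2-KO siGLO replicate 2 or 3 and 8 lower without WT siGLO replicate 3.

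Chromosome 8 differed from the other autosomes. Of its 762 tested genes 42 were higher and 254 lower, and the median log2 fold change was -0.21, against -0.04 to 0.07 for the other autosomes. All 3 Stag2-KO replicates showed it, with medians of -0.23, -0.22 and -0.23, and the WT replicates lay between -0.01 and 0.01. The clone had the same shift against WT under siStag1 (-0.22), and no such shift against the Stag1-KO clone (-0.02). Leaving chromosome 8 out, 1980 genes were higher and 1834 lower of 13746, which is 14.4% and 13.3%. The copy number of the chromosome was not measured, and its part in the calls on it was not tested.

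The X chromosome went the other way by less, with 138 higher and 63 lower of 520 tested genes and a median of 0.12. Of 13 Y-linked genes listed 4 were tested and 3 were lower, all of which passed the filter through WT siGLO alone, so that their count gives no support to a direction. Eif2s3y, which encodes a translation initiation subunit, was at 29.9, 41.7 and 41.6 in WT and 6.35, 5.39 and 5.28 in Stag2-KO (-2.71). Ddx3y was at 52.4, 64.1 and 40.7 in WT and 9.52, 7.54 and 10.6 in Stag2-KO (-2.49), and Uty had a log2 fold change of -1.36 (-0.89 without WT siGLO replicate 2). All 3 Stag2-KO replicates were low at these genes, and whether Y copies differ between clone and parent was not tested.

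**Figure D4:**
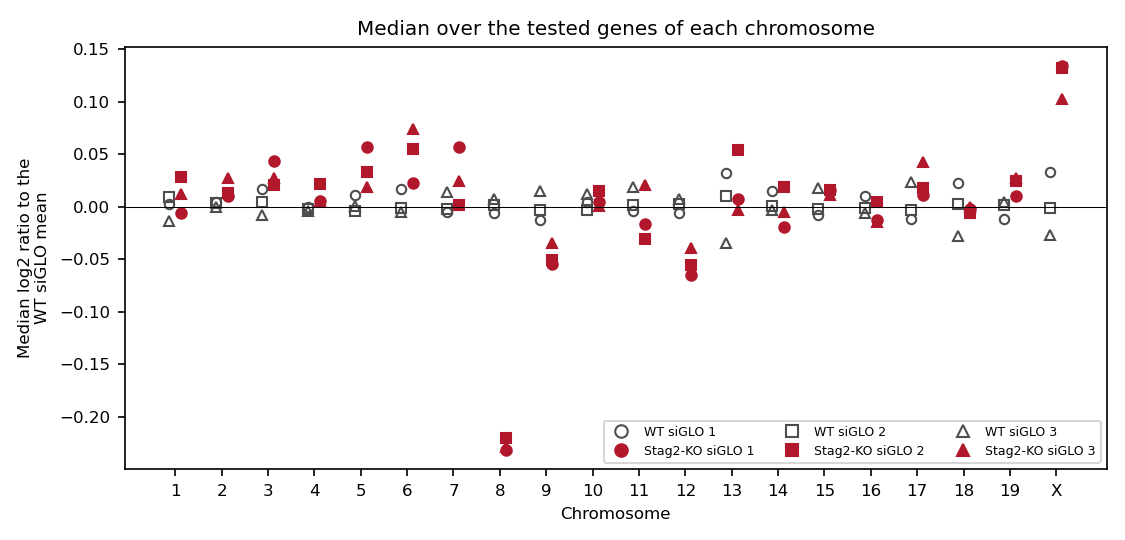
The y axis is the median log2 ratio to the WT siGLO mean over the tested genes of each chromosome, with 1 point per library and no Y chromosome. The 3 Stag2-KO libraries lie together near -0.22 on chromosome 8 and above 0.10 on the X chromosome, and the WT libraries stay near 0 throughout.

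The same clone was also measured against WT in 6 other libraries, both groups treated with siStag1. Whether libraries of equal number with siGLO and with siStag1 came from a shared culture is not stated in the sources used here. In that comparison 19.4% of tested genes were higher and 18.1% lower, 37.5% in all. Of the 2022 genes higher with siGLO 1570 (77.6%) were also higher with siStag1 and 0 were lower. Of the 2088 lower with siGLO 1584 (75.9%) were also lower and 1, Apob, was higher. As shares of the siStag1 calls these are 55.9% of those higher and 60.2% of those lower. Since both comparisons use the same clone, they repeat the measurement and not the knockout.

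The programs are given in turn, and the difference between programs was not tested. Primitive endoderm had 21 of 25 lower with siStag1, 20 of them lower in both, and a median of -1.83. Formative genes had 15 of 27 higher, all of them higher in both, and a median of 1.19. Sterol and fatty acid genes had 23 of 36 lower, all lower in both. Streak regulators had 5 higher and 8 lower with siStag1, 4 of them higher in both and 5 lower in both, and a median of -0.42. T had a log2 fold change of 1.88 with siStag1, and Sp5 (-0.49), Wnt8a (0.59) and Wnt3 (0.98) were not called. None of the 16 ribosomal protein genes that rose with siGLO rose with siStag1. The naive list had 18 of 24 lower with siStag1, 14 of them lower in both, and a median of -1.33.

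The difference between both effects was tested as an interaction. It was called at 23 genes, 20 with a higher value in siGLO and 3 with a lower value, which is 0.159% of tested genes (0.138% and 0.0207%), and at 138 genes with the replicate block. The count was 76 without Stag2-KO siStag1 replicate 1, 13 without WT siGLO replicate 2 or any WT siStag1 replicate and 15 without WT siGLO replicate 3. Of these 6 were in the naive list. The log2 fold changes with siGLO and siStag1 were -0.99 and -2.75 for Tfcp2l1, -0.83 and -2.32 for Esrrb, -1.28 and -2.30 for Tbx3, and -0.69 and -1.81 for Klf4. Nr5a2 and Tdh were not called with siGLO (-0.15 and -0.04) and were lower with siStag1 (-1.05 and -1.54). No streak or endoderm member passed the test of the difference.

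**Figure D5:**
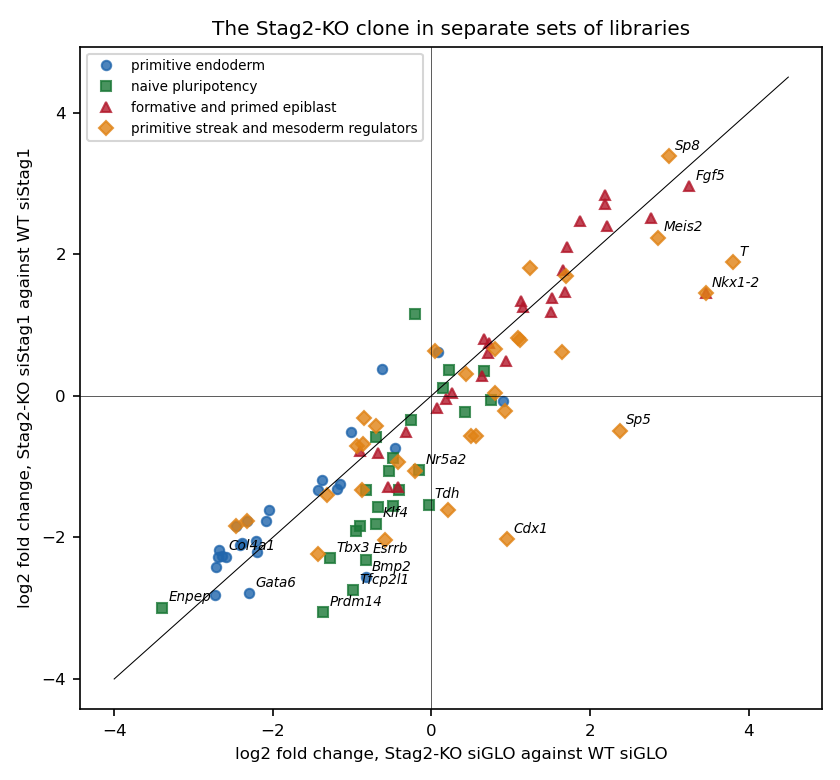
Log2 fold changes of Stag2-KO against WT are plotted with siGLO on the x axis and with siStag1 on the y axis for the tested members of 4 gene lists, and the line marks equal values. Most endoderm and formative genes lie along the line, the naive genes Tfcp2l1 (-0.99 and -2.75) and Esrrb (-0.83 and -2.32) lie below it, and Sp5 (2.38 and -0.49) is far from it.

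Stag2-KO was last compared directly with the Stag1-KO clone, with no WT library in the contrast. In it 12.9% of tested genes were higher in Stag2-KO and 12.7% lower, 25.7% in all, which is 1878 and 1844 genes. With only the libraries compared it was 1020 and 1386. This contrast and that with WT use the same 3 Stag2-KO siGLO libraries, so a like direction in both is not independent. Neural progenitor genes were higher in Stag2-KO (15 of 29, none lower, median 1.08), and so were 12 of 27 formative genes, with 5 lower. Lef1 was higher by 2.73, Zic2 by 2.63 and Pim2 by 2.52. Primitive endoderm genes were not lowest in Stag2-KO: 11 of 25 were higher than in Stag1-KO and 2 lower (median 0.49), among them Pdgfra (1.49), Dab2 (1.48) and Cubn (1.79), whereas Gata4 (0.28) and Col4a1 (0.12) were not called.

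Other lists separated the clones. The 2-cell-like genes were higher in Stag2-KO (15 of 18, median 3.09), and trophoblast genes were lower (17 of 19, median -1.23), as were 8 of 11 keratins and 12 of 20 LIF, gp130 and STAT3 genes. Members that passed the filter through a single clone are not set apart in this contrast, so these counts and medians are descriptions. Sterol and fatty acid genes were lower in Stag2-KO than in Stag1-KO in part (19 of 36, 2 higher, median -0.39), as were 10 of 22 basement membrane genes and 16 of 33 actin, SRF and YAP genes. With 1 clone per genotype, differences between the genotypes and between the clones cannot be told apart.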

How the data were processed

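RNA was sequenced as polyA libraries with paired-end reads. Per the labels and the study's methods, reads were aligned with STAR to mm10 and the authors tested them with DESeq2, whose results were not used. The counting tool, annotation and strand setting are not given in the sources used here, so overlapping, antisense and near-identical genes are uncertain. The authors deposited raw read counts per gene, 1 file per library, without normalization, and the 4 summary lines at their foot were left out (21.2% to 23.0% of the reads in the 6 libraries compared).

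Of 23412 genes listed, 14508 passed edgeR's filterByExpr over the 5 groups (minimum count 10, minimum total 15). All 15 libraries were fitted together with TMM factors in edgeR 4.0.16 (R 4.3.3), by glmQLFit and the two-sided glmQLFTest with Benjamini-Hochberg adjustment, and a gene was called at an adjusted p under 0.1. The SE is the fold change over the root of F. On simulated data 147 of 200 genes with 2-fold changes were recovered, with 13 false calls, over 14303 genes. Log2 ratios per replicate used a pseudocount of 0.5. Alternatives included DESeq2 1.42.0, other scalings and filters, and leaving out each replicate.

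Replicate numbers come from the sample titles. Deviations from the group mean correlated between WT siGLO and Stag2-KO siGLO libraries of equal number (r = 0.361, 0.101 and 0.492 over 12439 genes). The titles do not say what the numbers stand for, so a fit with the number as a block was added as an alternative. Calls, SEs and p-values are from the fit without the block unless the block is named.

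The 60 gene lists and the comparisons were chosen with earlier results of these data known. Genes were named by rule: Stag1, Stag2 and Stag3; the 8 largest rises and falls among called genes with a mean of at least 50 and no overlap; up to 2 per direction and list with a mean of at least 20; any member of the pluripotency, epiblast, streak, endoderm and cohesin lists; the 4 most and 4 least even; and members of any group of at most 5 calls. Acta2, Apob, Axin2, Dlk1, Fasn, Fgf3, Fgfr2, Fgfr3, Fgfr4, Hmgcs1, Hoxb1, Igf2, Insig1, Lifr, Meg3, Mvd, Nes, Nodal, Pax6, Rian, Srebf1, Srebf2, Zscan4c and the named Klf, Parp and Srsf family members fall outside it and were chosen after their values were seen. Some genes that the rule names are not reported here. Promoters are from RefSeq (GRCm38.p6).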

Additional observations from a re-analysis of the deposited data

Results flagged for a closer look

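The difference between Stag2-KO and WT itself differed between siGLO and siStag1 at 23 genes, by edgeR's interaction test. For the genes named above, the log2 fold change with siGLO minus that with siStag1 was 1.76 for Tfcp2l1, 1.49 for Esrrb, 1.5 for Tdh, 1.02 for Tbx3, 1.11 for Klf4 and 0.90 for Nr5a2, all of the naive list. It was 2.24 for Inhbb, 1.10 for Igf2 and -1.29 for Fgfr2. Inhbb was lower in the clone with either siRNA (log2 fold change -1.79 with siGLO and -4.03 with siStag1). Igf2 and Fgfr2 were not called with siGLO.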

How the results depend on the processing

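The 4110 calls became 4301 with DESeq2, 4114 with DESeq2's size factors, 4053 with library size alone, 3832 with no filter, 3653 with at least 10 counts in every library compared, 3286 with only the libraries compared and 2922 at an adjusted p under 0.05. With the replicate number as a block 5723 genes were called, all 4110 were kept and none changed sign. The block also gave 1 higher gene in the trophoblast, unfolded protein response and glycolysis lists, 2 in the p53 list and 1 lower retinoic acid gene. The interaction gave 138 genes with the block, 102 with DESeq2 and 14 with only the libraries compared. With only the libraries compared 2406 genes were called against Stag1-KO (1020 higher and 1386 lower). Neural progenitors had 7 higher with at least 10 counts in every library compared, where fewer of them were tested. The cause of the other shifts was not tested.

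Leaving out 1 replicate gave 2524 to 3985 calls against WT, 2539 to 3522 against Stag1-KO, 4237 to 5324 under siStag1 and 13 to 76 for the interaction. It gave 20 to 22 lower endoderm, 13 to 16 lower naive, 15 to 17 higher formative, 7 to 11 higher streak, 11 to 16 higher neural progenitor and 16 to 26 lower sterol genes. Of 202 genes named, 175 were called, and 136 of them stayed called with the same sign under every alternative in which they were tested. An alternative whose filter removed a gene was skipped for that gene. The other 39 missed the threshold without at least 1 library. Car14, Col3a1, Col4a5, Dkk1, Fli1, Foxc1, Ihh, Klf17, Parp10, Parp8, Pcdhb2, Pcdhb22, Plat, Rgl3, Tcf15, Trp53, Wnt3a, Zfp42 and Zscan4c did so without WT siGLO replicate 1. Apob, Axin2, Bmp4, Bmp7, Car14, Col3a1, Dkk1, Dnmt3a, Fli1, Foxc1, Fst, Gata2, Hoxc13, Ihh, Klf13, Klf17, Klf2, Mau2, Parp10, Pcdhb22, Plat, Rgl3, Sall4, Snai1, Tcf15, Trp53, Uty, Wnt3a and Wnt7b did so without WT siGLO replicate 2. Apob, Axin2, Bmp7, Cntn2, Col3a1, Dkk1, Dnmt3a, Fgf13, Fli1, Foxc1, Fst, Gata2, Gdf3, Hoxc13, Ihh, Klf13, Klf17, Klf2, Mau2, Parp8, Plat, Sall4, Snai1, Srsf6, Trp53 and Wnt3a did so without WT siGLO replicate 3. Apob, Bmp7, Cntn2, Col3a1, Dkk1, Dnmt3a, Hoxc13, Ihh, Klf13, Klf2, Mau2, Sall4, Srsf6, Trp53, Uty and Wnt3a did so without Stag2-KO siGLO replicate 1. Apob, Axin2, Bmp4, Bmp7, Car14, Fgf13, Fli1, Foxc1, Fst, Gata2, Ihh, Klf13, Klf17, Klf2, Mau2, Parp10, Parp8, Pcdhb2, Pcdhb22, Plat, Psmb8, Rgl3, Tcf15, Wnt3a, Wnt7b, Zfp42 and Zscan4c did so without Stag2-KO siGLO replicate 2. Apob, Bmp4, Car14, Col4a5, Dkk1, Fli1, Foxc1, Fst, Gata2, Hoxc13, Ihh, Klf17, Mau2, Pcdhb2, Plat, Rgl3, Snai1, Tcf15, Trp53, Uty, Wnt7b, Zfp42 and Zscan4c did so without Stag2-KO siGLO replicate 3. None of the named genes changed sign while called. With the block Bmp2, Fgfr2, Mixl1, Sox2, Srebf1, Srebf2 and Tbx6 gained a call, and Acta2, Bmp2, Cdx1, Mixl1, Sox2, Srebf2, Tbx6 and Thbd did so without a replicate. Counts of 2 fell to 1 without at least 1 library for higher genes in the naive, basement membrane and germline lists and for lower genes in the formative, neuron, claudin, ribosomal protein, respiratory chain and DNA replication lists. The counts without chromosome 8 were added after seeing the data. Genes near the floor of 3 counts, such as the Hox genes in WT, cannot be compared by fold at this depth.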
